A study of Mus musculus with 15 samples.

Results

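Day 15 of the culture was compared between the +Fgf and +Wnt stimulations, that is, between tissue pushed towards neural retina and tissue pushed towards retinal pigment epithelium (RPE). The comparison took 6 of the 15 RNA-Seq libraries of the series, 3 for each stimulation, and 13845 of 23244 gene entries, those with at least 1 CPM (reads scaled to the size of the library) in at least 3 of the 15 libraries. All libraries came from EB5 Rx::GFP+/- mouse embryonic stem cells, a heterozygous GFP knock-in line in which GFP reports the eye field gene Rax (also called Rx), so all groups carry the same reporter allele. The cells were aggregated in SFEBq culture, a serum-free method in which floating aggregates form optic epithelium, and the epithelium was explanted at Day 10. The +Wnt explants received CHIR99201, an inhibitor of the kinase GSK3 that mimics Wnt signalling, at 3 μM for the first 24 h and at 1 μM afterwards. The +Fgf explants received 5 ng/ml bFgf and 10% FBS. The serum was given with the bFgf only, so that effects of Fgf and of serum cannot be told apart. The Day 12 libraries of the same stimulations and the Day 10 tissue (3 libraries each) are used below only to set the Day 15 values against them.

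In the embryo, neural retina and RPE arise from the same optic vesicle. Fgf from the overlying surface ectoderm favours neural retina, where Mitf, the master regulator of pigment cell genes, is repressed. Wnt/beta-catenin and BMP signals favour RPE, a monolayer of pigmented epithelium that makes melanin, recycles visual pigment and digests shed photoreceptor tips in lysosomes. Retinal progenitors then leave the cell cycle and make ganglion cells first, followed by horizontal cells, cones and amacrine cells.

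The stimulations separated on a large part of the genes. Between 12556998 and 15161284 reads were recovered per Day 15 library. Of the 13845 genes, 9505 (68.7%) differed in limma at a Benjamini-Hochberg adjusted p under 0.05, of which 5267 were higher in +Fgf (38.0% of genes tested) and 4238 in +Wnt (30.6%). By edgeR on the recovered reads 9318 genes were called (67.3%), 4653 higher in +Fgf and 4665 in +Wnt. The genes higher in +Fgf mostly differed by little, with a median size of 0.44 on the log2 scale, against 0.81 for those higher in +Wnt. A difference of at least 1 was therefore found for more genes on the +Wnt side, 1772 (12.8%), than on the +Fgf side, 959 (6.93%). After quantile normalization of the libraries these numbers were 1525 and 1258. Differences of at least 3 were found for 211 genes on the +Wnt side (1.52%) and 125 on the +Fgf side (0.903%), and the 3 libraries of each group did not overlap for 10115 genes (73.1%). Past a difference of 5 there were 26 genes on the +Fgf side and 20 on the +Wnt side. The RNA integrity number (RIN) was lower in every +Fgf library than in every +Wnt library of Day 15. A model with RIN as a term called 6362 genes, 2798 of them higher in +Wnt, and 6235 of them were also called without it, none with the opposite sign. Its part in the differences was not tested further. The +Fgf library of replicate 1 stood apart from replicates 2 and 3 for forebrain and choroid plexus genes, and results that rest on it are given with and without it. Because these were bulk samples, fewer cells of a type and less RNA per cell cannot be told apart.

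**Figure D1:**
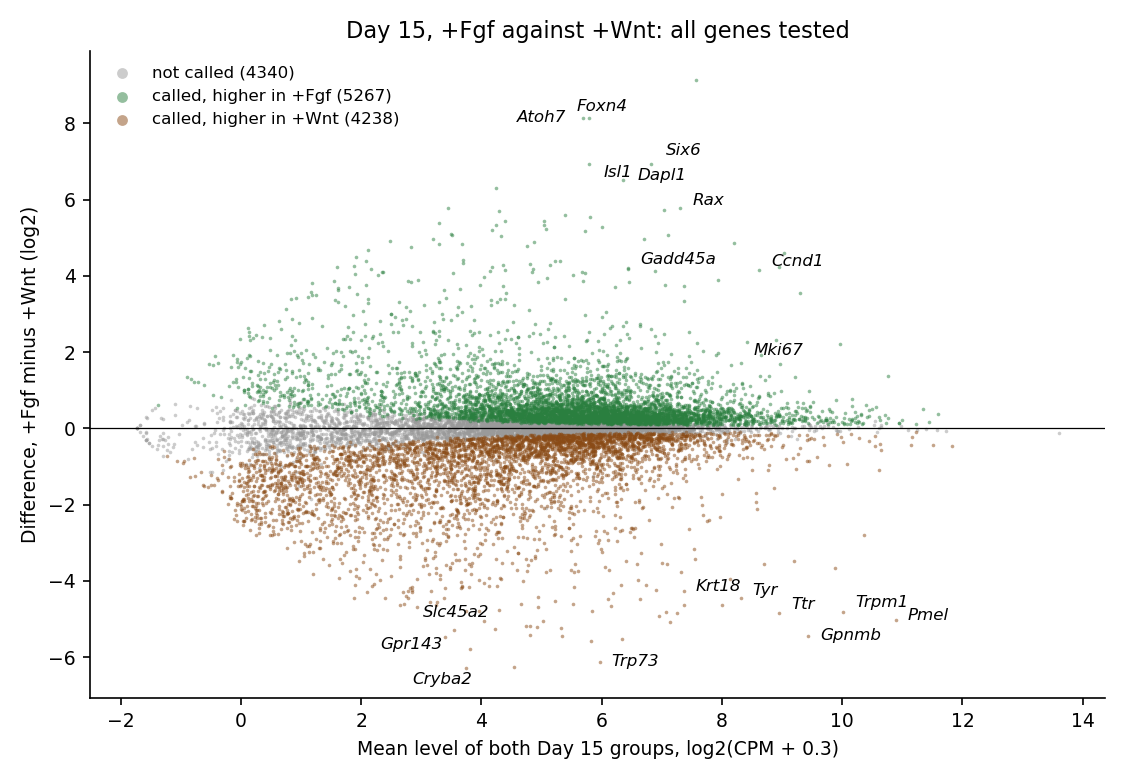
Mean level of the Day 15 groups as log2(CPM + 0.3) on the x axis against the log2 difference, +Fgf minus +Wnt, on the y axis, 1 point per gene tested (13845). Green points (5267) were called higher in +Fgf and brown points (4238) higher in +Wnt. Grey points were not called. Called genes with a difference below 0.5 were mostly green (2980, against 1341 brown). Foxn4 stood near the top at 8.13, and the melanosome genes Pmel, Gpnmb and Trpm1 stood out as abundant and far below 0.

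Retinal progenitor genes were high in +Fgf and mostly low in +Wnt. Rax, the eye field factor carried by the reporter line, read 343, 287 and 305 CPM in the +Fgf libraries and 5.83, 5.15 and 5.26 in the +Wnt libraries, a difference of 5.77 ± 0.08 (SE, limma adjusted p = 9.3e-18). The lowest +Fgf library was thus far above the highest +Wnt library. Rax and Six6, a homeobox factor of eye field and retina, were still present in +Wnt tissue at Day 12. Starting from a Day 10 mean of 164 CPM, Rax was at 44.7 and then 5.41 CPM in the +Wnt means of the later days, and Six6 at 292, 29.3 and 1.59 CPM in the same order. The difference of Rax between the stimulations grew by 3.46 ± 0.12 from Day 12 to Day 15 (adjusted p of the interaction = 1.0e-11). The antisense gene Raxos1 overlaps the exons of Rax, and reads of the pair cannot be told apart because the strand setting of the counting is not given in the sources used here.

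All 12 members of the list of neural retina progenitor factors were called higher in +Fgf, with a median difference of 3.33 against 0.05 for all genes tested, and 7 of them differed more at Day 15 than at Day 12. Sfrp2, a secreted Wnt antagonist, was the most abundant, at 934 ± 84 CPM (SD, n = 3) in +Fgf and 49.4 ± 1.6 in +Wnt. Fgf15, a growth factor of retinal progenitors, was at 569 ± 42 and 19.7 ± 5.1 CPM. The smallest differences were those of Lhx2 and Pax6. Pax6 was at 595 ± 12 against 245 ± 7.0 CPM (1.28 ± 0.05, adjusted p = 3.6e-12), and Lhx2, a factor needed for the optic vesicle as a whole, at 276 ± 22 against 230 ± 23 CPM (0.26 ± 0.07, adjusted p = 0.0029), the only member whose libraries overlapped between the groups. Hes5, a Notch effector, was lower in +Fgf at Day 12 (-0.97) and higher at Day 15 (2.12 ± 0.12, adjusted p of the interaction = 9.4e-10).

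The receptor Fzd5, which is expressed in optic vesicle and retinal progenitors, and Cyp26a1, which breaks down retinoic acid, were also among the 15 largest differences towards +Fgf. Fzd5 read 278, 255 and 244 CPM in +Fgf against 4.09, 4.03 and 5.68 in +Wnt (5.74 ± 0.12). Cyp26a1 read 43.4, 45.2 and 26.1 against 0.062, 0.373 and 1.19 CPM (5.71 ± 0.42). Of 13 retinoic acid pathway genes, 9 were higher in +Fgf and 2 in +Wnt, and 6 and 0 with RIN as a covariate. In the main fit the enzymes that make retinoic acid did not go together. Aldh1a1, which marks the dorsal retina, and Aldh1a3, which marks the ventral retina, were higher in +Fgf by 4.11 ± 0.51 and 1.95 ± 0.21, whereas Aldh1a2 was higher in +Wnt at 1.43 ± 0.27 against 0.308 ± 0.11 CPM (-1.51 ± 0.43, adjusted p = 0.0055). The call for Aldh1a2 was lost after quantile normalization (adjusted p = 0.094) and with RIN as a covariate (adjusted p = 0.59).

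Patterning factors of dorsal and of ventral retina were higher in +Fgf. Pax2, a factor of ventral retina and optic stalk, read 38.4, 36.6 and 29.2 CPM against 0.31, 0.82 and 0.912 (5.21 ± 0.30, adjusted p = 1.9e-10). Tbx3, a dorsal T-box factor, read 77.6, 63.2 and 55.8 CPM against 0.744, 1.86 and 2.03 (5.23 ± 0.25). Dorsal Tbx2 and Tbx5 and ventral Vax2 were higher as well, by 2.78, 2.72 and 3.32, of which the call of Tbx5 was lost with RIN as a covariate (adjusted p = 0.10). The BMP ligand Bmp4, made by the dorsal eye, went the other way, with 5.95 ± 2.4 CPM in +Fgf and 33.4 ± 2.7 in +Wnt (-2.51 ± 0.20, adjusted p = 7.9e-09). Of 18 tested members of the list of optic stalk, dorsal eye and ciliary margin genes, 10 were higher in +Fgf and 6 in +Wnt. Among all genes tested the shares were 38.0% and 30.6%, and with RIN as a covariate the list counts were 9 and 2.

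Neurogenesis was the second group on the +Fgf side. Of 15 proneural and Notch ligand genes, 13 were higher in +Fgf and 2 in +Wnt (median 1.75). At Day 12 the count had been 2 and 9, and the difference became more positive for 13 of the 15 by the interaction test. Foxn4, a factor that gives progenitors the competence to make horizontal and amacrine cells (chromosome 5, 114254164 to 114273807, GRCm38), read 118, 98.7 and 111 CPM in +Fgf and 0.062, 0.0746 and 0.14 CPM in +Wnt. Each +Wnt library held at most 2 reads of it, under the floor of 3 reads, so Foxn4 was at least 529-fold higher in +Fgf (8.13 ± 0.14 on the log2 scale, adjusted p = 8.3e-17). Dll4, a Notch ligand of newborn retinal neurons, was at 51.7 ± 3.8 against 1.60 ± 0.07 CPM (4.77 ± 0.20). Broader neurogenic genes differed less, with Neurog2 at 199 ± 7.7 against 59.3 ± 7.5 CPM and Dll1 at 77.8 ± 4.4 against 49.7 ± 5.5 CPM. Both members higher in +Wnt, Gadd45g (-1.45 ± 0.16) and Neurod2 (-2.33 ± 0.84), are also expressed in neurons outside the eye. The Neurod2 values were 0.516, 17.9 and 22.8 CPM in +Fgf and 27.2, 35.3 and 43.8 in +Wnt, and its call was lost with RIN as a covariate (0.06, adjusted p = 0.98) and without +Fgf replicate 1 (-0.78, adjusted p = 0.088). Its call rested on +Fgf replicate 1, since without that library the difference was -0.78 (adjusted p = 0.088), and it was also lost without +Wnt replicate 3 (adjusted p = 0.062), in the fit to the 6 Day 15 libraries alone (adjusted p = 0.081) and with RIN as a covariate (difference 0.06, adjusted p = 0.98).

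Genes of retinal ganglion cells, the first retinal neurons, were mostly higher in +Fgf: 14 of 17 tested members, with 2 higher in +Wnt and 1 not called (median 2.02). Isl1, a LIM homeobox factor of ganglion cells, read 117, 111 and 98.3 CPM against 1.05, 0.597 and 0.281 (6.93 ± 0.30, adjusted p = 4.6e-12). Sncg, gamma-synuclein, read 119, 112 and 95.8 CPM against 1.61, 2.31 and 2.31 (5.53 ± 0.27). The neurofilament genes Nefl and Nefm and the transcriptional coactivator Eya2 were not called higher in +Fgf at Day 12 and were at Day 15. Nefl was at 145 ± 15 against 25.8 ± 3.2 CPM (2.48 ± 0.15) and Eya2 at 76.1 ± 6.5 against 6.99 ± 0.94 CPM (3.39 ± 0.10). Both members higher in +Wnt, Ebf2 (41.5 ± 11 against 4.55 ± 1.1 CPM) and Thy1 (4.08 ± 1.3 against 0.961 ± 0.67 CPM), are also expressed in other neurons. The call of Thy1 was lost with RIN as a covariate (-0.96, adjusted p = 0.24). In that model 11 members were higher in +Fgf and 1 in +Wnt, so calls were lost on the +Fgf side as well. The receptor gene Ret, present on ganglion, amacrine and horizontal cells, was at 63.7 ± 7.9 against 1.21 ± 0.38 CPM (5.43 ± 0.24).

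For horizontal and amacrine cells, 8 of 17 members were higher in +Fgf, 5 in +Wnt and 4 were not called. Among all genes tested the shares were 38.0% and 30.6%, and with RIN as a covariate the list counts were 8 and 2. Ptf1a, a factor of both cell types, read 7.08, 6.94 and 6.15 CPM in +Fgf and at most 2 reads per library in +Wnt, at least 32.5-fold higher, and Prdm13, an amacrine cell factor, was at 13.3 ± 3.2 against 0.217 ± 0.20 CPM. Neither Ptf1a nor Prdm13 was called at Day 12 (adjusted p = 0.22 and 0.38). The largest differences towards +Wnt were those of Lhx1, a horizontal cell factor that is also expressed by neurons elsewhere (25.5 ± 7.4 CPM in +Wnt against 1.58 ± 1.4), of Calb2 (78.3 ± 12 against 12.6 ± 8.6) and Gad1 (5.89 against 1.90). The call of Calb2 was lost with RIN as a covariate (-1.79, adjusted p = 0.058). Dlx1, a homeobox factor of ganglion and amacrine cell precursors, read 37.2, 35.1 and 38.5 CPM against 0.062, 0.149 and 0.351 (6.30 ± 0.30). Its antisense gene Dlx1as was at least 102-fold higher in +Fgf, and reads of the pair cannot be told apart, for the same reason as above.

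Of 20 genes for neuronal cytoskeleton and synapse, 6 were higher in +Fgf, 7 in +Wnt and 7 were not called, with a median of 0.09, beside shares of 38.0% and 30.6% for all genes tested. In the model with RIN the counts were 4 and 2. Tubb3, neuronal tubulin, was at 682 ± 28 CPM in +Fgf and 575 ± 46 in +Wnt (0.25 ± 0.16, adjusted p = 0.19). Dcx, a microtubule protein of migrating neurons, was higher in +Wnt at 332 ± 64 against 168 ± 20 CPM (-0.97 ± 0.24, adjusted p = 0.0020), a call that was lost with RIN as a covariate (-0.50, adjusted p = 0.38). At Day 12, 14 of the 20 had been higher in +Wnt and 4 in +Fgf, and by the interaction test the difference became more positive in 12 and more negative in 3. The list summed to between 2637 and 2713 CPM in +Fgf and between 2424 and 2880 CPM in +Wnt at Day 15.

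**Figure D2:**
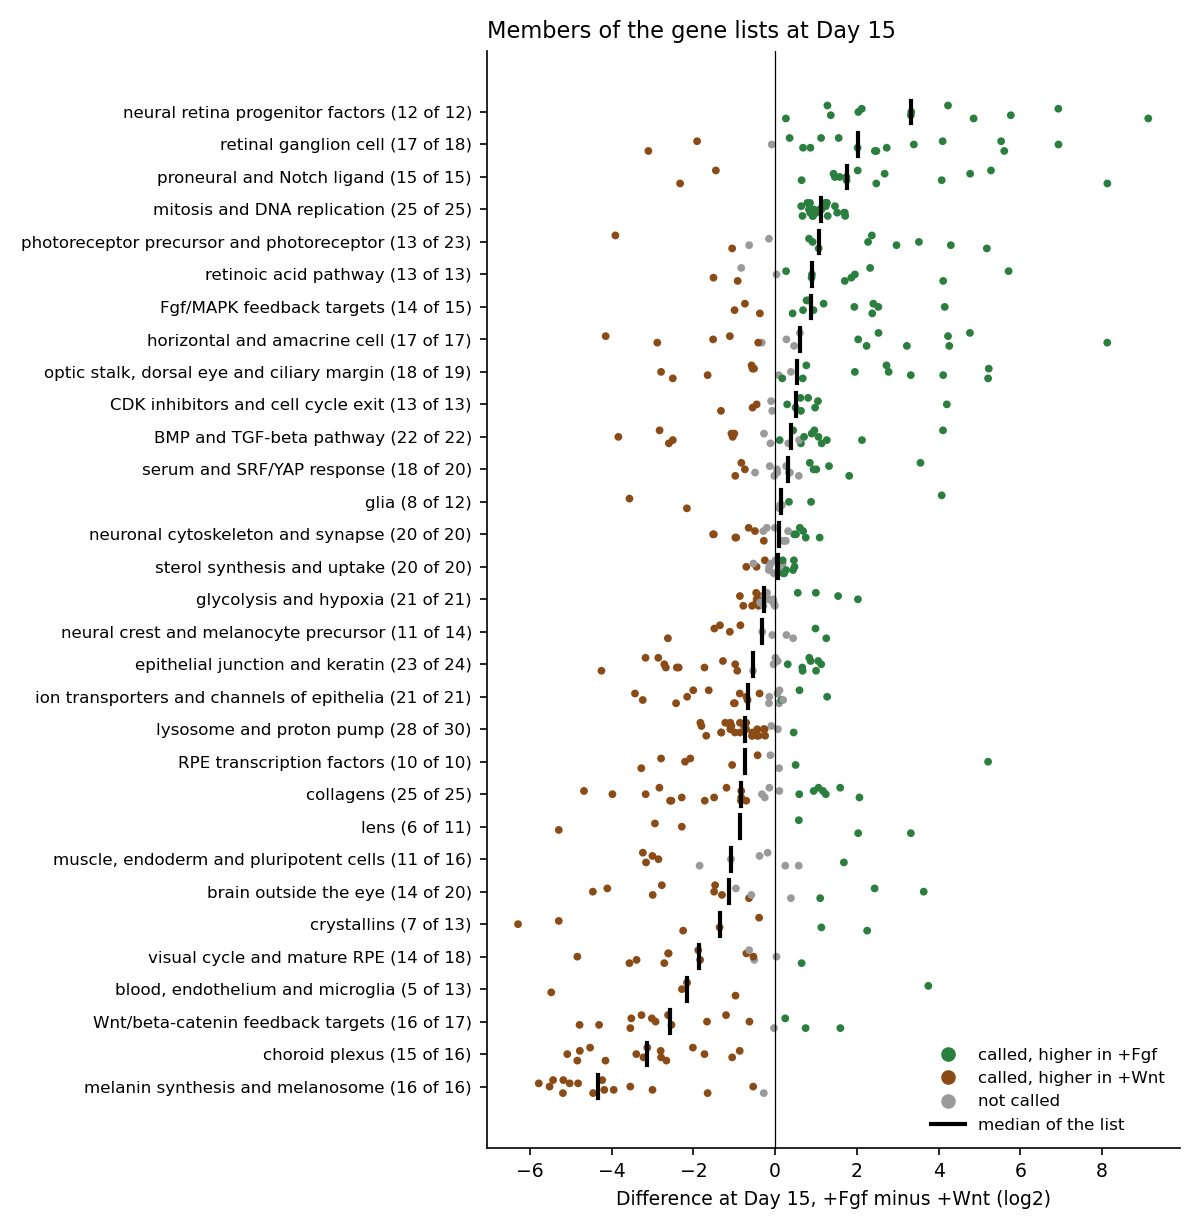
Log2 difference at Day 15, +Fgf minus +Wnt, of each tested member of 31 gene lists (numbers in brackets: tested of all members). Green and brown points were called higher in +Fgf and +Wnt, grey points were not called, and the black bar is the median of the list. Retinal progenitor and ganglion cell genes lay to the right, melanosome, choroid plexus and Wnt target genes to the left, and pan-neuronal and sterol genes around 0.

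Of 23 photoreceptor genes 10 were too low to be tested, among them recoverin (Rcvrn, at most 0.0746 CPM in any Day 15 library). Of the 13 tested, 9 were higher in +Fgf and 2 in +Wnt. Crx, the homeobox factor that switches on photoreceptor genes in precursors, read 116, 97.7 and 93.8 CPM in +Fgf and 2.54, 2.31 and 2.74 in +Wnt (5.18 ± 0.24, adjusted p = 1.2e-11). At Day 12 Crx had been slightly lower in +Fgf (1.83 against 2.88 CPM, -0.67), and its difference changed by 5.85 ± 0.34 from there (adjusted p of the interaction = 2.1e-09). Rbp3, which carries retinoids between photoreceptors and RPE, read 27.9, 17.7 and 18.2 against 2.11, 2.09 and 3.09 CPM (2.97 ± 0.21). Otx2, which acts in photoreceptor precursors and in RPE alike, was higher in +Wnt at 226 ± 14 against 109 ± 2.3 CPM. So was Pde6b, a rod phosphodiesterase, at 5.50 ± 0.75 against 0.0936 ± 0.11 CPM, and with at most 3 reads in each +Fgf library it was at least 25.8-fold higher in +Wnt.

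Sequences of the start regions are shown for a few genes whose differences carry the comparison, to place 2 known binding motifs in them: TCATGTG, the core of the M-box bound by Mitf, for melanin genes, and GGATTA, the core bound by Otx2 and Crx, for photoreceptor genes. Sequences are from RefSeq (GRCm38.p6), 5′ to 3′ on the strand of the gene, with the motif of that group of genes in capitals. The motif of the other group is left in lower case. It occurs in the lines of Rbp3 (TCATGTG) and Dct (TAATCC, the reverse complement of GGATTA). Windows of 250 bases before to 50 after the start were searched on both strands. The M-box core was in 3.77% of all 32851 windows and the Otx/Crx core in 7.06%. These are shares of windows, while a gene was counted when any of its windows held the motif. The shares and the gene counts are thus in unlike units and were not compared. Of the 16 melanosome genes 11 had a window and 5 of these held the M-box core (Tyr, Tyrp1, Dct, Slc24a5 and Trpm1), and of the 23 photoreceptor genes 18 had a window and 7 held the Otx/Crx core. The lines give Tyr (chr7:87493513-87493632, minus strand), Trpm1 (chr7:64153675-64153794, plus strand), Dct (chr14:118052297-118052416, minus strand), Crx (chr7:15879969-15880075, minus strand) and Rbp3 (chr14:33953883-33954002, plus strand), all before the start of the gene and outside its annotated exons.
Tyr: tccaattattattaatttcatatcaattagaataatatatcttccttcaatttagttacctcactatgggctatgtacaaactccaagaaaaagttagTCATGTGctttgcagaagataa
Trpm1: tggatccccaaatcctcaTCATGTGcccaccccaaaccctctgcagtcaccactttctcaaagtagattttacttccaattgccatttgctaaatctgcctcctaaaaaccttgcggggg
Dct: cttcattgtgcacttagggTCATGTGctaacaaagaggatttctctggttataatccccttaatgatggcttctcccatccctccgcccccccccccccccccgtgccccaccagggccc
Crx: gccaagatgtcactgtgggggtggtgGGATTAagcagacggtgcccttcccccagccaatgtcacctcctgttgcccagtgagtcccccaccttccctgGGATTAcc
Rbp3: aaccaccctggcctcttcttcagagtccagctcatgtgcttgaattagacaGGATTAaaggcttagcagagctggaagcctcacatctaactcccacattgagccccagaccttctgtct

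The motif lay 22 bases before the start in Tyr, 142 in Trpm1 and 151 in Dct, and 94 and 21 bases before it in Crx. These are matches of letters, and binding was not measured in these libraries.

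Melanin genes made up the clearest group on the +Wnt side. Of 16 members, 15 were higher in +Wnt and none in +Fgf, with a median of -4.34, and adding RIN to the model left 15 higher in +Wnt. Their summed level was between 425 and 528 CPM in the +Fgf libraries and between 8471 and 10910 CPM in the +Wnt libraries. Pmel (chromosome 10, 128704195 to 128720238), the protein that forms the fibrils on which melanin is laid down, was the most abundant. It read 95.4, 128 and 114 CPM in +Fgf and 4204, 3112 and 3741 CPM in +Wnt (-5.03 ± 0.15, adjusted p = 6.7e-14). Its exons overlap those of Cdk2 and Dgka, which were at 76.0 and 5.76 CPM in +Wnt. Tyr (chromosome 7, 87424771 to 87493512), tyrosinase, the rate-limiting enzyme of melanin synthesis, read 23.3, 28.7 and 30.5 against 667, 542 and 614 CPM (-4.45 ± 0.18). Tyrp1 and Dct, its related enzymes, differed by -3.95 ± 0.14 and -3.54 ± 0.14.

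The transporters and membrane proteins of the melanosome differed by as much or more. Gpr143, the melanosome receptor mutated in ocular albinism, read 0, 0.412 and 0.283 CPM against 27.7, 25.4 and 28.6 (-5.78 ± 0.27). Slc24a5, a cation exchanger, read 1.84, 4.12 and 3.89 against 175, 137 and 159 CPM (-5.52 ± 0.27). Gpnmb, a glycoprotein related to Pmel, read 26.5, 36.3 and 30.0 against 1548, 1161 and 1333 CPM (-5.43 ± 0.22). At Day 12 Gpnmb was at 29.9 and 82.7 CPM (-1.40), and its difference changed by -4.03 ± 0.32 to Day 15 (adjusted p of the interaction = 4.3e-08). In the group, 15 of the 16 became more negative between the days, and the Day 12 median was -1.71. The smallest differences were those of Myo5a, a motor that also moves cargo in neurons (107 ± 0.43 against 156 ± 9.8 CPM, -0.54 ± 0.06), and of Mreg, which was not called (7.15 ± 1.3 against 8.66 ± 0.52 CPM, adjusted p = 0.10).

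**Figure D3:**
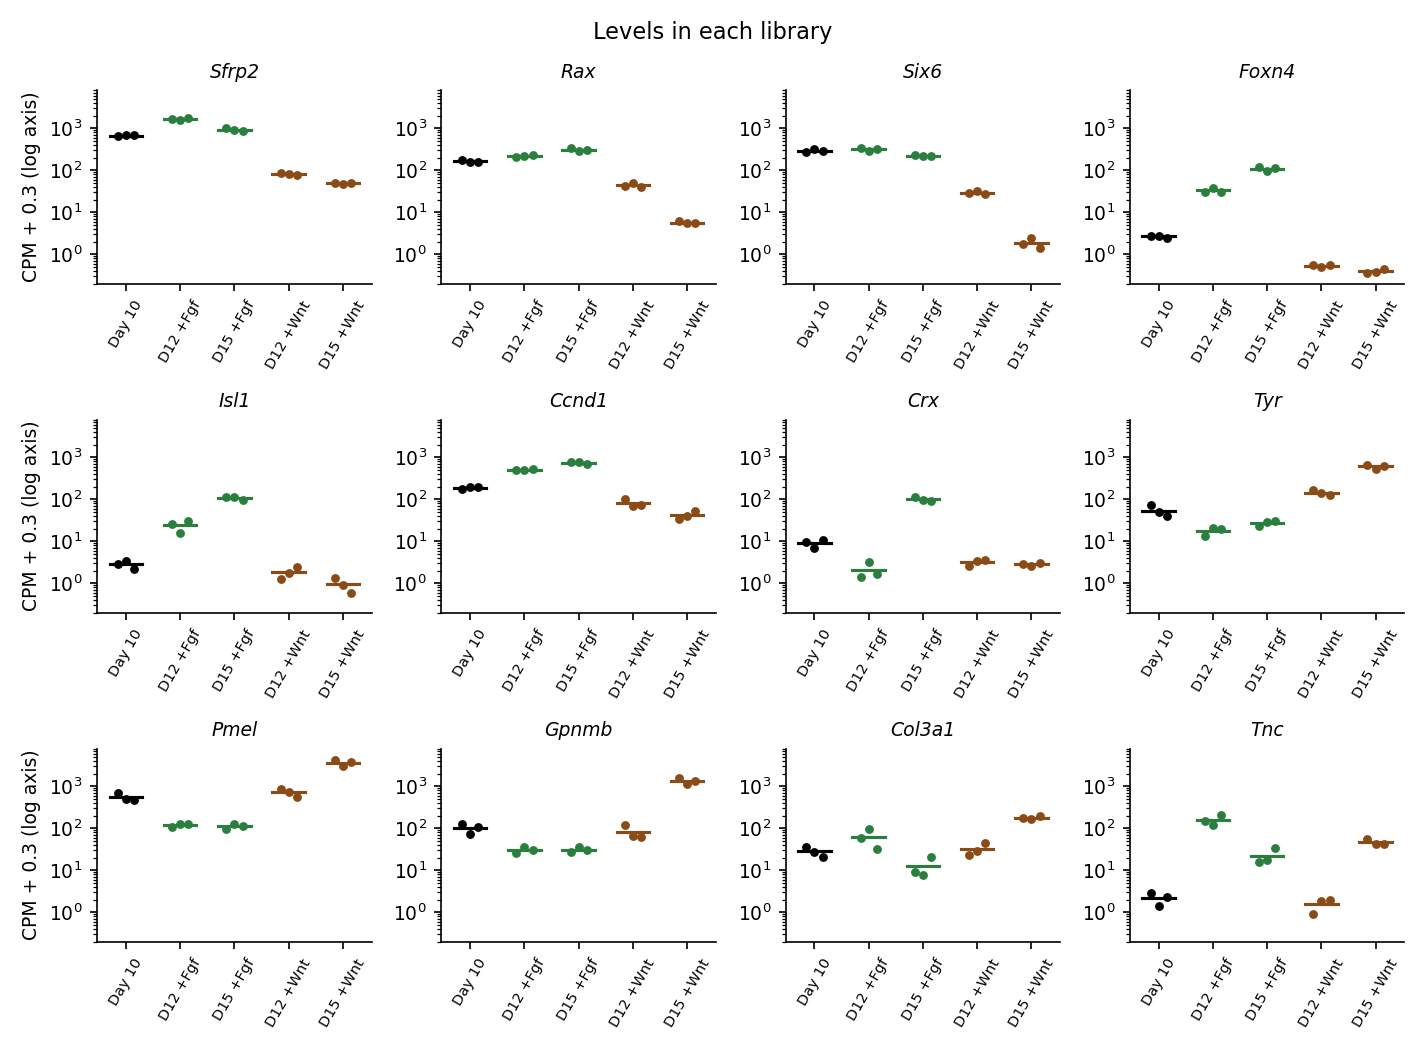
Levels of 12 genes in the 15 libraries, as CPM + 0.3 on a log axis. Points are libraries and lines are group means (n = 3). Foxn4 was near 0 in +Wnt from Day 12 on, Crx was high only in Day 15 +Fgf, Tyr, Pmel and Gpnmb were highest in Day 15 +Wnt, and Tnc was higher in +Fgf at Day 12 and in +Wnt at Day 15.

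Of the transcription factors named for RPE, 6 of 10 were higher in +Wnt and 2 in +Fgf. Mitf read 17.8, 18.3 and 19.6 CPM in +Fgf and 191, 169 and 188 in +Wnt (-3.28 ± 0.07, adjusted p = 2.8e-15), and Otx1 was at 16.1 ± 3.1 against 74.4 ± 5.2 CPM. Tfec, a relative of Mitf, was low in both groups (1.20 ± 0.49 against 5.83 ± 1.0 CPM). Tfe3, another relative, was at 50.1 against 46.9 CPM and not called. The members higher in +Fgf were Pax2, described above, and Sox9 (80.2 ± 0.43 against 56.6 ± 3.3 CPM).

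Genes of the mature RPE were in part too low to be tested. Of 18 visual cycle and mature RPE genes, 14 could be tested, of which 10 were higher in +Wnt, 1 in +Fgf and 3 were not called (median -1.86). Rlbp1, the retinaldehyde carrier of RPE and Müller glia, read 17, 24 and 22.3 CPM in +Fgf against 269, 230 and 253 in +Wnt (-3.57 ± 0.14). Stra6, the receptor that takes up vitamin A, was at 20.7 ± 2.2 against 128 ± 9.9 CPM, and Rdh5, the retinol dehydrogenase of the RPE, at 1.33 ± 0.52 against 16.3 ± 2.4 CPM. The 4 members that could not be tested, Rpe65, Lrat, Rgr and Best1, were below 1 CPM on average in +Wnt. Rpe65, the isomerase of the visual cycle, had 0 reads in all +Wnt libraries, where 0 reads allow up to 3 reads per library. Rgr had none either, Lrat was at 0.634 ± 0.097 CPM and Best1 at 0.160 ± 0.11 CPM in +Wnt. The labelled RPE was thus high in melanin genes, while Rpe65 and Rgr were not detectable in it at this depth.

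Crystallins were tested for 7 of 13 members, with 5 higher in +Wnt and 2 in +Fgf. Cryba2, a beta-crystallin, read 38.2, 17.3 and 23.4 CPM in +Wnt and at most 1 read in each +Fgf library, at least 123-fold higher in +Wnt (-6.29 ± 0.27). Crybb1, another, best known from the lens, read 0.147, 0.206 and 0.495 CPM in +Fgf and 30.4, 19.8 and 17.3 in +Wnt (-5.30 ± 0.29). Cryab, a small heat shock protein, was at 7.59 ± 0.83 against 37.7 ± 7.2 CPM. Of 11 lens genes 6 could be tested, with 3 higher in +Wnt and 3 in +Fgf. Among all genes tested the shares were 30.6% and 38.0%. Besides Crybb1, the lens genes higher in +Wnt were Mip, a lens membrane channel, at 15.8 ± 2.6 against 1.79 ± 0.37 CPM, and Bfsp2, a lens filament gene, at 5.85 ± 0.15 against 0.970 ± 0.17 CPM. Foxe3 and Cryaa, also on the lens list, were at most 0.235 CPM on average in either group. The part of lens cells in these values was not tested.

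Lysosomal genes were higher in +Wnt by small and even steps. Of 28 tested members 25 were higher in +Wnt, 1 in +Fgf and 2 were not called (median -0.74), and adding RIN to the model left 23 higher in +Wnt. The lysosomal enzymes Hexa (-1.83 ± 0.08), Gaa (-1.80 ± 0.08) and Ctsb (-1.69 ± 0.07) differed most. Ctsb read 169, 186 and 182 CPM against 639, 525 and 569. Subunits of the proton pump followed, such as Atp6v0c (231 ± 7.1 against 496 ± 45 CPM) and Atp6v1a (156 ± 7.3 against 329 ± 13 CPM). Ctsd was the exception, at 328 ± 26 against 240 ± 17 CPM (0.45 ± 0.09, adjusted p = 3.4e-04). With RIN as a covariate its difference was 0.63 and no longer called.

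Epithelial transport and adhesion genes were mixed, with more and larger differences towards +Wnt. All genes tested had shares of 30.6% higher in +Wnt and 38.0% in +Fgf. Among 21 ion transporters and channels 12 were higher in +Wnt and 3 in +Fgf, and 8 and 2 with RIN as a covariate. Slc4a5, a sodium bicarbonate cotransporter, read 34.2, 33.4 and 27.2 CPM against 363, 305 and 361 (-3.43 ± 0.20), and the membrane carbonic anhydrase Car14 was at 67.5 ± 11 against 362 ± 37 CPM. The cytosolic carbonic anhydrase Car2 went the other way (1.27 ± 0.16). Among 23 tested junction and keratin genes 11 were higher in +Wnt and 8 in +Fgf, beside the same shares of 30.6% and 38.0%. With RIN as a covariate these counts were 9 and 5. The keratin Krt18 read 10.5, 22.5 and 17.4 CPM against 355, 262 and 321 (-4.25 ± 0.21), and at Day 12 it was not called (101 against 78.5 CPM, adjusted p = 0.14). Its partner Krt8 was at 5.25 ± 4.4 against 32.7 ± 5.0 CPM. Tight junction genes divided, with Cldn3 and Ocln higher in +Wnt (-3.17 and -2.41) and Cldn1 higher in +Fgf (1.13).

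The feedback targets of the signals given were still apart at Day 15. Genes of these lists are induced by a pathway and are commonly read as signs of its activity, and some of them dampen it. Of 14 tested Fgf/MAPK targets 11 were higher in +Fgf and 3 in +Wnt (median 0.88). At Day 12 the counts were 13 and 0 (median 2.37), and 9 became less positive between the days. Dusp6, the Erk phosphatase, read 95.7, 91.3 and 94.1 CPM against 12.8, 18.3 and 17.5 (2.53 ± 0.11), after 2.69 at Day 12 (adjusted p of the interaction = 0.42), and Etv5 was at 146 ± 3.7 against 28.2 ± 4.9 CPM. Spry2 went from 2.69 to 0.94, and Egr1 turned from 2.82 to -0.74. Ccnd1, cyclin D1, which is also a cell cycle driver and a Wnt target in other tissues, was by far the largest at 746 ± 28 against 42.5 ± 10 CPM (4.15 ± 0.14, adjusted p = 2.1e-13).

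Of 16 tested Wnt/beta-catenin feedback targets 12 were higher in +Wnt, 3 in +Fgf and 1 was not called, with a median of -2.58 against -1.14 at Day 12. Axin2, the scaffold that most tissues induce on Wnt signalling, read 10.5, 13.0 and 23.7 CPM against 183, 182 and 164 (-3.54 ± 0.23). Sp5 was at 0.799 ± 0.79 against 25.5 ± 1.7 CPM (-4.79 ± 0.32), and Wif1, a secreted Wnt antagonist, at 7.59 ± 4.8 against 137 ± 22 CPM (-4.31 ± 0.28). The R-spondin receptor Lgr5 was higher in +Fgf instead (17.9 ± 0.16 against 5.80 ± 1.3 CPM, 1.60 ± 0.15). Of 22 BMP and TGF-beta genes 11 were higher in +Fgf and 7 in +Wnt, beside shares of 38.0% and 30.6% for all genes tested. With RIN as a covariate the counts were 6 and 6. The ligands Bmp5, Bmp7 and Bmp4 were higher in +Wnt (-3.84, -2.83 and -2.51), and the BMP targets Id1 and Id3 were higher in +Fgf by 1.14 and 1.06. Chrdl1, a secreted BMP antagonist, read 55.1, 56.3 and 50.2 CPM against 2.67, 2.91 and 2.95 (4.11 ± 0.10).

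All 25 genes for mitosis and DNA replication were higher in +Fgf, between 0.64 and 1.71 on the log2 scale (median 1.13), and all 25 were called with RIN as a covariate. Mki67, the proliferation antigen, read 520, 506 and 446 CPM against 145, 157 and 146 (1.71 ± 0.08). Top2a was at 759 ± 19 against 236 ± 10 CPM, Cdk1 at 261 ± 2.0 against 123 ± 9.1 CPM and the replication helicase subunit Mcm6 at 250 ± 6.2 against 111 ± 3.4 CPM. At Day 12, 19 had been higher in +Fgf with a median of 0.30, and 24 of 25 became more positive. From Day 12 to Day 15, Mki67 went from 428 to 490 CPM in +Fgf and from 305 to 149 CPM in +Wnt. Of 13 CDK inhibitors and exit genes 8 were higher in +Fgf and 3 in +Wnt, and 4 and 1 with RIN as a covariate. Among all genes tested the shares were 38.0% and 30.6%. Cdkn1a, p21, was at 55.9 ± 3.1 against 141 ± 8.8 CPM (-1.33 ± 0.07), whereas Gadd45a, a stress and growth arrest gene, read 180, 164 and 149 CPM against 8.44, 8.95 and 8.49 (4.20 ± 0.09, adjusted p = 6.3e-16).

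The serum and SRF/YAP response genes differed widely at Day 12 (17 higher in +Fgf of 18 tested, median 2.45). They were closer at Day 15 (7 higher in +Fgf, 3 in +Wnt, 8 not called, median 0.31). All genes tested had Day 15 shares of 38.0% higher in +Fgf and 30.6% in +Wnt. Tagln and Acta2, contractile genes, kept a difference of 3.56 ± 0.22 and 1.32 ± 0.18, from 6.32 and 5.77. The immediate early gene Fos changed from 2.76 to -0.98 ± 0.22, the latter not called with RIN as a covariate (adjusted p = 0.16). FBS remained in the +Fgf medium only.

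Collagens were mostly higher in +Fgf at Day 12 and in +Wnt at Day 15. At Day 12, 14 of 25 were higher in +Fgf and 4 in +Wnt (median 0.81), and at Day 15, 7 were higher in +Fgf and 14 in +Wnt (median -0.83). The interaction was negative for 20 of 25 and positive for 3. Col3a1 read 8.63, 7.55 and 21 CPM against 180, 166 and 196 (-3.98 ± 0.37), Col6a3 was at 2.09 ± 0.88 against 58.5 ± 8.7 CPM (-4.68 ± 0.36), and Col1a1 moved from 2.83 to -2.57 ± 0.24. The main basement membrane collagen Col4a1 remained higher in +Fgf (402 ± 43 against 178 ± 18 CPM), as did the cartilage and vitreous collagens Col9a1 (2.06 ± 0.08) and Col2a1 (1.59 ± 0.08). Dcn, a small proteoglycan of collagen-rich matrix, was among the largest differences towards +Wnt, reading 1.03, 1.85 and 3.96 against 113, 97.5 and 122 CPM (-5.59 ± 0.41).

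Metabolic genes were among the groups with small medians, 0.06 for sterol genes and -0.27 for glycolysis and hypoxia genes. Among all genes tested, 38.0% were higher in +Fgf and 30.6% in +Wnt. Of 20 sterol genes 7 were higher in +Fgf, 3 in +Wnt and 10 not called, all within 0.71 of 0. Of 21 glycolysis and hypoxia genes 8 were higher in +Wnt, 4 in +Fgf and 9 not called. When RIN was added to the model, 0 were higher in +Wnt and 4 in +Fgf.

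The Day 12 and Day 15 comparisons used separate libraries. Of the 959 genes higher in +Fgf by at least 1 at Day 15, 727 (75.8%) were called the same way at Day 12, 184 (19.2%) were not called and 48 (5.01%) were called the other way. Of the 1772 genes higher in +Wnt by at least 1, 1054 (59.5%) were called the same way, 566 (31.9%) were not called and 152 (8.58%) were called the other way. At Day 12, 7131 genes were called (51.5%), 3642 higher in +Fgf (26.3%) and 3489 in +Wnt (25.2%). The difference itself changed between the days for 6636 genes (47.9%), becoming more positive in 3736 (27.0%) and more negative in 2900 (20.9%). Differences of at least 1 in opposite directions at the 2 days were found for 103 genes. Of these, 84 had moved from +Fgf to +Wnt, and 19 from +Wnt to +Fgf.

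Among the genes that moved to the +Wnt side, Tnc, the matrix protein tenascin C, read 15.6, 17.0 and 34.0 CPM in +Fgf and 54.2, 41.5 and 42.8 in +Wnt at Day 15 (-1.13 ± 0.32, adjusted p = 0.0055), after 160 against 1.32 CPM at Day 12 (6.67). With RIN as a covariate the Day 15 difference of Tnc was -1.33 and no longer called (adjusted p = 0.093). Runx1, a transcription factor, was at 0.522 ± 0.29 against 4.77 ± 0.12 CPM at Day 15 and at 14.8 against 0.428 CPM at Day 12. In the other direction, Olig2, a neurogenic factor of a subset of retinal progenitors, was at 21.3 ± 1.9 against 1.09 ± 0.70 CPM at Day 15 (4.08 ± 0.42) and at 0.467 against 2.25 CPM at Day 12 (-1.69). The photoreceptor genes Pdc and Cdhr1 had been higher in +Wnt at Day 12 by 4.53 and 2.92, and were higher in +Fgf at Day 15 by 2.27 ± 0.20 and 2.79 ± 0.26.

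**Figure D4:**
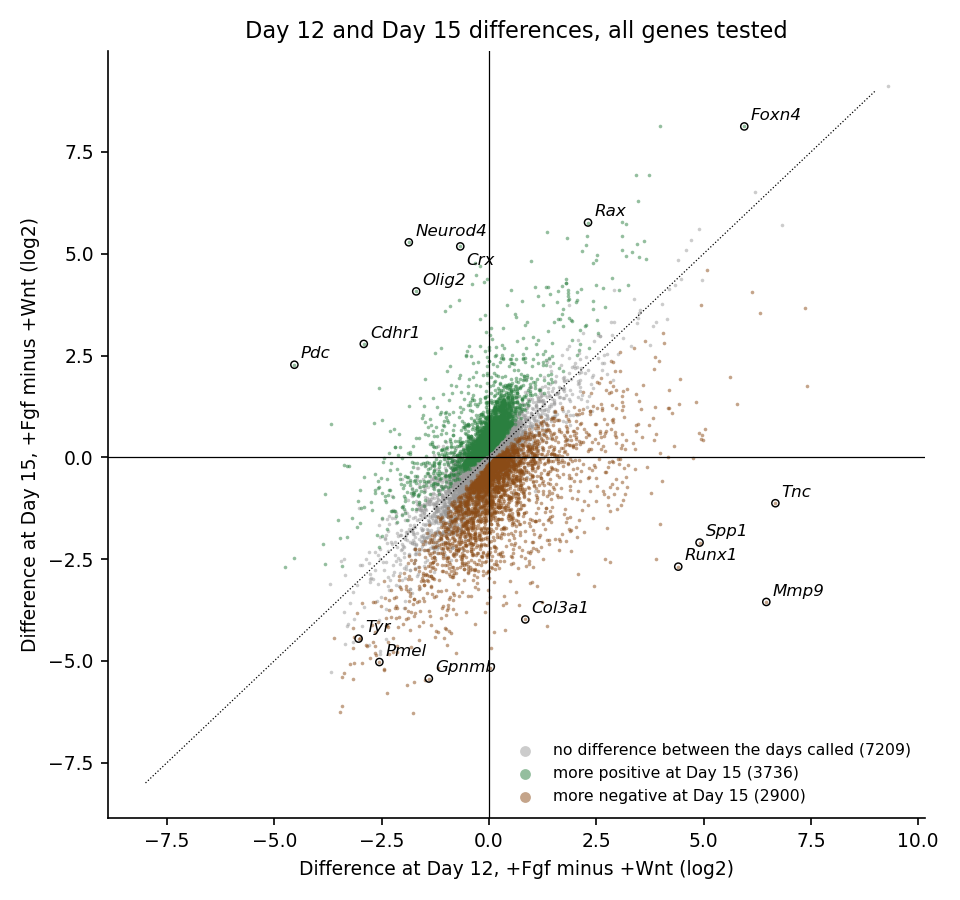
Log2 difference, +Fgf minus +Wnt, at Day 12 (x axis) against Day 15 (y axis) for the 13845 genes tested; the dotted line marks equal values. Green points (3736) became more positive and brown points (2900) more negative by the interaction test. Neurod4, Crx, Olig2, Pdc and Cdhr1 sat at the upper left, and Mmp9, Tnc, Spp1 and Runx1 at the lower right.

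Markers of tissue outside the eye were measured in both groups. Of 15 tested choroid plexus genes all 15 were higher in +Wnt with a median of -3.13, against 13 in the model with RIN, and the list summed to between 153 and 316 CPM in +Fgf and between 1607 and 2212 CPM in +Wnt. Several members, among them Otx2, Msx1 and Aqp1, are also genes of the RPE or ciliary margin. Enpp2, autotaxin, a gene of choroid plexus and of other epithelia, read 3.76, 11.7 and 10.2 CPM against 297, 258 and 261 (-5.09 ± 0.30). The R-spondins Rspo2 and Rspo3, ligands that strengthen Wnt signalling and are made by the dorsal midline of the forebrain, were at 5.01 ± 4.2 against 109 ± 22 CPM and at 3.95 ± 4.2 against 70.1 ± 14 CPM. Rspo1 was higher as well (-5.45 ± 0.51), as were Trp73, a p53 relative (134, 139 and 94.8 CPM in +Wnt against 0.369, 1.65 and 3.75, -6.12 ± 0.59), and Dmrt3, a forebrain factor (-5.26 ± 0.55).

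Of 14 tested markers of the brain outside the eye 8 were higher in +Wnt and 3 in +Fgf, the latter being Pax8, Gbx2 and En2 (3.64, 2.43 and 1.10). Tbr1, a factor of cortical neurons, read 0.885, 26.2 and 41.2 CPM in +Fgf and 176, 216 and 174 in +Wnt. Emx2, a factor of dorsal forebrain, read 0.811, 8.52 and 19.5 CPM against 130, 143 and 111, and Emx1 read 0, 7.69 and 11.6 CPM against 21.4, 20.9 and 31.2. The markers of other regions En1, Hoxa2, Hoxb1 and Hoxb4 stayed below 1 CPM on average in both groups. The +Fgf library of replicate 1 stood below the other two for these genes. Without it, the difference of Tbr1 moved from -4.11 to -2.51 and that of Emx1 from -2.996 to -1.32, both still called (adjusted p = 1.3e-04 and 0.019). With RIN as a covariate the calls of Tbr1, Emx2 and Emx1 were lost (-2.01, -2.59 and -0.37, adjusted p = 0.32, 0.079 and 0.88), as was that of Gbx2 (0.90, adjusted p = 0.35). In the main fit Tbr1, Emx2 and Emx1 were higher in +Wnt, as were some members of the neuronal lists above. Their part in those results was not tested.

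Traces of other cells differed between single libraries. The pluripotency markers Pou5f1, Nanog, Zfp42 and Dppa5a were low but higher in +Wnt. Dppa5a read 0, 7.83 and 0.495 CPM in +Fgf and 3.10, 22.1 and 21 in +Wnt, so that the groups overlapped. With RIN as a covariate the differences were -1.49 for Pou5f1, -1.77 for Nanog, -2.06 for Zfp42 and -2.60 for Dppa5a, none of them called (adjusted p = 0.40, 0.17, 0.21 and 0.24). The liver and endoderm genes Afp and Apoa1 were seen in +Fgf replicate 2 (8.65 and 12.0 CPM) and were at most 0.701 CPM in each of the other Day 15 libraries. Of 11 tested neural crest and melanocyte precursor genes 5 were higher in +Wnt and 2 in +Fgf, beside shares of 30.6% and 38.0% for all genes tested. With RIN as a covariate the counts were 4 and 1. Pax3 was higher in +Wnt (-2.625, limma adjusted p = 6.25e-06, and 0.0374 with RIN as a covariate). The neural crest factors Sox10 and Foxd3, too low to be tested, were near 0 in +Wnt (0.0854 and 0.0647 CPM), and Sox10 reached 3.04 CPM in +Fgf replicate 3. Of 13 blood, endothelium and microglia markers only 5 could be tested, with 4 higher in +Wnt and 1 in +Fgf. Among all genes tested the shares were 30.6% and 38.0%, and in the model with RIN the list counts were 3 and 1. Cd68, a further marker of myeloid cells, was among those called higher in +Wnt, by less than 1. Csf1r, a receptor of myeloid cells, read 19.4, 19.2 and 21.8 CPM in +Wnt against 0.147, 0.412 and 0 in +Fgf (-5.48 ± 0.31), while Ptprc, Aif1, Cx3cr1 and Tyrobp, which define those cells, were at 0 to 0.162 CPM on average. Kdr, the receptor of Vegf that retinal progenitors also express, read 265, 262 and 216 CPM in +Fgf against 21, 20 and 14 (3.75 ± 0.26), while the endothelial cadherin Cdh5 was at 0.0246 and 0.0234 CPM. The endothelial genes Pecam1 and Tek were higher in +Wnt (-2.28 and -2.16).

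**Figure D5:**
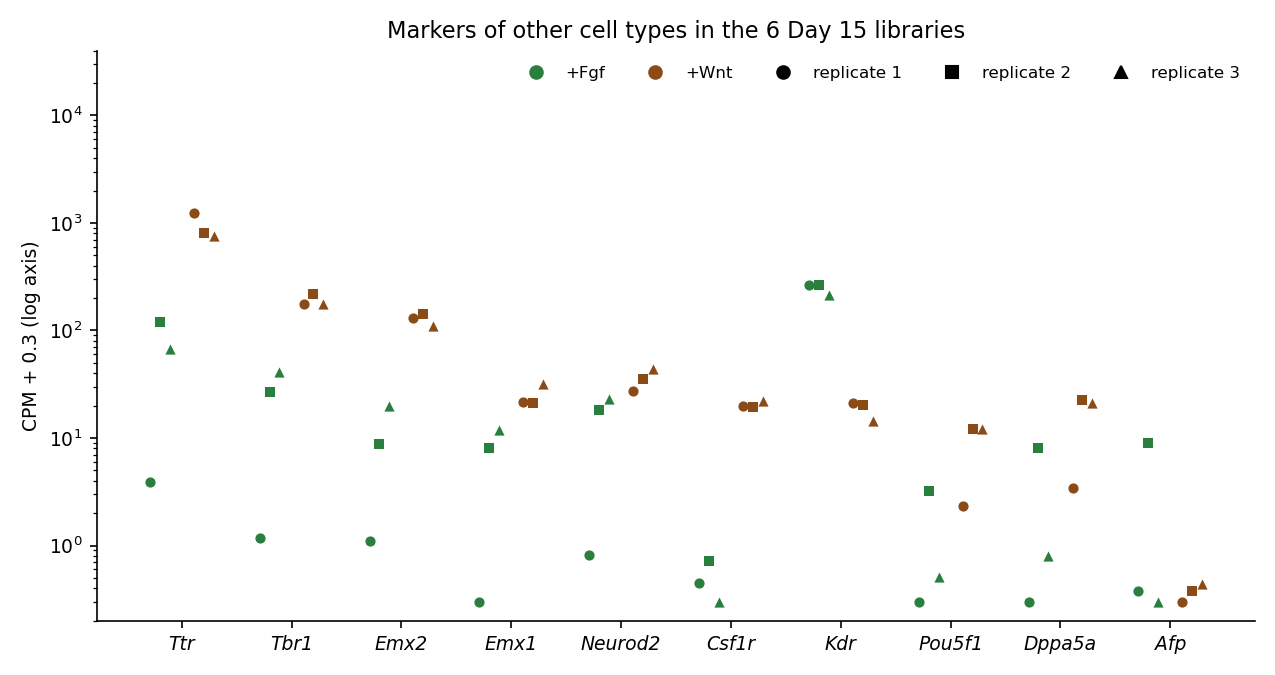
Levels of markers of other cell types in the 6 Day 15 libraries, as CPM + 0.3 on a log axis. Green symbols are +Fgf and brown symbols +Wnt, and circles, squares and triangles are replicates 1, 2 and 3. The +Fgf replicate 1 lies lowest for Ttr, Tbr1, Emx2, Emx1 and Neurod2, and Afp stands out in +Fgf replicate 2 alone.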

How the data were processed

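Alignment by the authors was with TopHat2 2.0.8b on mm10, gene-level fragments came from Cuffdiff and normalized values from edgeR 3.2.4. The deposited values are a normalized signal, called CPM by the study, scaled by library size times a normalization factor. Read numbers could be recovered, since 100% of the values came out as whole reads (1 read was worth 0.0620 to 0.0746 CPM in the Day 15 libraries), and edgeR on them called 9318 genes. Values were tested as log2(value + 0.3) with limma 3.58.1 in R 4.3.3, in 1 model of 5 group means over 15 libraries, with a moderated trend, two-sided, Benjamini-Hochberg adjustment and a threshold of 0.05, and edgeR 4.0.16 on the recovered reads was an alternative. Differences on this scale understate those of low genes. A level of at most 3 reads in each library was taken as the floor, for counting error only. The labels call the samples biological triplicates. Named genes were the 15 largest differences each way (at least 10 CPM, replicates apart), the 4 largest members of each of 31 lists and up to 2 against the direction of the list, the 4 largest changes between days each way, up to 4 each way of those that reversed, and genes that check the labelled tissues (Mitf, Tyr, Rax and Pou4f2 among them). Some genes that meet this rule are not reported here. Other list members were named as examples after their values were seen. The members and lists were chosen with earlier results of these data known. Positions are from GENCODE M21 (GRCm38). The procedure was tested on simulated data. Alternatives covered the pseudocount, filter, scaling, moderation, RIN, replicate block, samples, count test and each Day 15 replicate left out.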

Additional observations from a re-analysis of the deposited data

Results flagged for a closer look

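The difference between +Fgf and +Wnt differed between Day 12 and Day 15 for 6636 genes by the interaction term of limma, and 9 genes with large changes were picked by rule. Mmp9, a matrix metalloproteinase, changed most, by -10.02 on the log2 scale, followed on the same side by Tnc (-7.80), Runx1 (-7.10) and Spp1 (-7.00). Neurod4 (7.15), Pdc (6.81), Crx (5.85), Olig2 (5.77) and Cdhr1 (5.70) changed towards +Fgf.

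With 3 libraries per group, single libraries were not tested as outliers.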

How the results depend on the processing

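The 5267 genes higher in +Fgf and 4238 higher in +Wnt stayed within 1.5 times under all alternatives, except that 2798 were higher in +Wnt with RIN as a covariate. RIN also lowered the number of genes whose difference changed between the days from 6636 to 3842. RIN and stimulation move together at Day 15, so the covariate also takes up part of what separates the groups. The filter of at least 10 CPM lowered the number with a difference of at least 1 from 2731 to 1717, as fewer genes were tested. Without 1 of the Day 15 replicates, between 8916 and 9067 genes were called in all, 2628 to 2806 by at least 1, and 6028 to 6319 between the days. Correlations of deviations between the groups were 0.184, 0.215 and -0.0886 for the same replicate numbers. For unlike numbers they lay between -0.334 and 0.174. With 3 libraries per group these values cannot decide whether replicate numbers pair the samples. The fit with the replicate number as a block called 9486 genes. Of the 157 named genes, 136 kept direction and call under every alternative that gave a value. With RIN as a covariate 19 lost the call and Neurod2 also changed sign (0.06234). In the fits without 1 replicate, 154 kept direction and side of the threshold; Neurod2 lost it, as did Cdkn2a without +Wnt replicate 1 (1.05 to 0.57), and 1 gene gained a call. Scaling shifted the median of all genes by at most 0.03. Precision is set by 3 libraries per group; genes below 1 CPM were not tested.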
